A study of Saccharomyces cerevisiae with 8 samples.

Results

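Budding yeast lacking both AIR2 and RRP6 (air2-Δ rrp6-Δ) was compared with its wild-type parent (WT). The 4 libraries of these strains, 2 per strain, were chosen by their labels out of 8 libraries of polyadenylated RNA, and all 9014 features of the count table were examined. Both strains carried the BY4742 background, a laboratory haploid of mating type alpha with his3D1, leu2D0, lys2D0 and ura3D0, and air2-Δ rrp6-Δ carried rrp6::LEU2 and air2::bleR in addition. A further strain, rrp6-Δ, carried rrp6::LEU2 alone and was used for the effect of losing AIR2 once RRP6 was gone. The last strain, air1-Δ rrp6-Δ, carried rrp6::LEU2 with air1::bleR and entered only the shared estimate of the spread and some levels. The double mutant air2-Δ rrp6-Δ therefore differed from WT by the loss of RRP6, the loss of AIR2 and the gain of 2 marker genes, and these cannot be told apart in the comparison with WT. A strain lacking AIR2 alone was not analysed here. Cultures in YPD, a rich medium, were taken near an optical density of 2.5 at 30 °C, and RNA bound by poly(U) sepharose was sequenced on the SOLiD platform. The labels do not state whether the libraries of a strain came from separate cultures, so p-values measure only the spread between libraries, which may be technical.

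Rrp6 is a 3′ to 5′ exonuclease of the nuclear RNA exosome, the machine that degrades and trims nuclear RNA. Air2 is a zinc knuckle protein of TRAMP, in which the helicase Mtr4 and the poly(A) polymerase Trf4 (gene PAP2) or Trf5 add short adenosine tails that help the exosome start on a substrate. Their known substrates include cryptic unstable transcripts (CUTs), which are short noncoding RNAs terminated by the Nrd1, Nab3 and Sen1 proteins, as well as precursors of small nucleolar RNAs (snoRNAs) and defective tRNAs. Since the libraries were selected for poly(A), a value reports polyadenylated RNA of a feature and not its whole pool.

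Total counts were 29750702 and 18742328 in air2-Δ rrp6-Δ, against 13787609 and 124620247 in WT. Features of the ribosomal DNA took 57.1 and 55.1% of the air2-Δ rrp6-Δ counts and 66.9 and 82.3% of the WT counts, so the share was higher in WT and unequal between the WT libraries. The first principal component, with 59.6% of the variance, placed the WT libraries at 82.5 and 57.6 and all 6 libraries lacking RRP6 between −30.8 and −16.6. Levels below are CPM, counts scaled for library size by the trimmed mean of M-values (TMM). Higher or lower means an adjusted p under 0.05 in edgeR's quasi-likelihood test over 7543 tested features, and SE is the standard error of a log2 fold change.

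The deleted genes matched the labels. RRP6 had 1.35 and 1.53 CPM in air2-Δ rrp6-Δ, against 30.3 and 35.1 CPM in WT (log2 fold change −4.51). AIR2 had 0.898 and 0.848 CPM in air2-Δ rrp6-Δ, against 8.21 and 7.88 CPM in WT (−3.19, SE 0.28, adjusted p = 0.00048). Both genes kept some counts in the strain that lacks them, and both were far below WT. LEU2, the marker that replaced RRP6, had 825 counts in air2-Δ rrp6-Δ and 0 in WT, which is at least 321-fold higher against a floor of 3 counts over the WT group. AIR1, the paralog of AIR2, had 21.3 and 20.6 CPM in air2-Δ rrp6-Δ, against 16.9 and 19.9 CPM in WT, with no call (0.18, adjusted p = 0.78). The alpha-specific receptor gene STE3 had 90.3 and 131 CPM in air2-Δ rrp6-Δ, against 107 and 160 CPM in WT. Of 4 alpha-specific genes tested 0 were called, with log2 fold changes from −0.98 (MF(ALPHA)2) to 0.20 (SAG1). Of 3 a-specific genes tested 0 were called, from −0.14 (STE6) to 0.80 (STE2). AGA2, an a-specific gene that was not tested, had 12 counts in air2-Δ rrp6-Δ and 2 in WT. Its ratio of scaled counts was 7.01, with an exact counting interval of 1.56 to 64.5. By library the strains overlapped, at 0.158 and 0.242 CPM in air2-Δ rrp6-Δ, against 0.161 and 0 CPM in WT. The a-factor genes MFA1 and MFA2 had at most 0.185 CPM in any of these 4 libraries. LYS2 and URA3 had 0 counts in all 4. HIS3, which carries the his3D1 allele in this background, had enough counts to be tested and had no call (−0.30).

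Against WT, 660 features were higher in air2-Δ rrp6-Δ (8.75% of those tested) and 116 were lower (1.54%). Most of the rise lay in noncoding RNA: 442 of the features that rose were CUTs and 109 were stable unannotated transcripts (SUTs). Their share of all counts outside the ribosomal DNA stayed small. CUTs held 0.432 and 0.511% of these counts in air2-Δ rrp6-Δ, against 0.0492 and 0.0724% in WT, and SUTs held 0.486 and 0.564% in air2-Δ rrp6-Δ, against 0.243 and 0.278% in WT. Protein-coding genes held 88.6 and 87.5% in air2-Δ rrp6-Δ, against 90.9 and 88.4% in WT. Permuting 2 libraries a side can give no p below 0.3333, and these shares are given as values without a test. DESeq2 called 768 features higher (10.2%) and 197 lower (2.61%), and edgeR's exact test called 865 higher (11.5%) and 203 lower (2.69%). With the ribosomal DNA share of each library as a covariate, 80 features were higher and 13 lower; this share differed between the strains, so part of the strain difference enters the covariate.

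**Figure D1:**
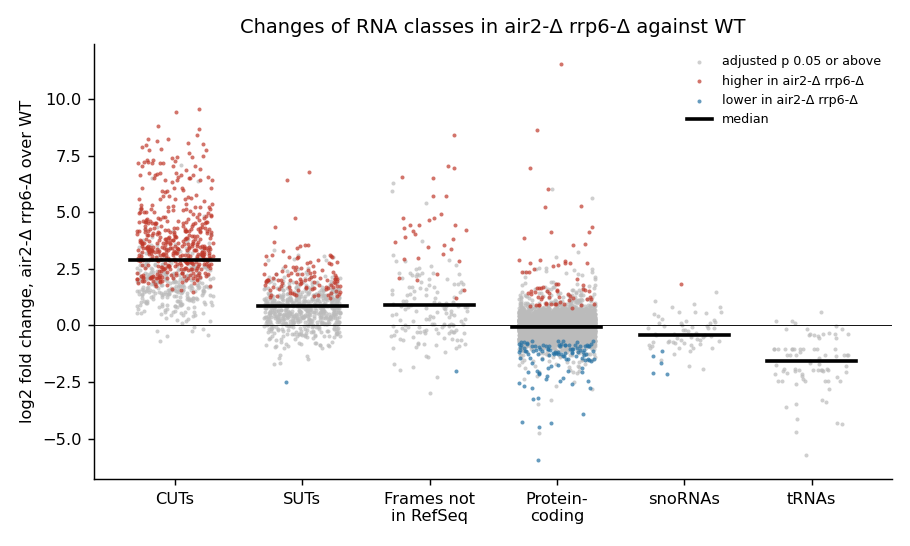
Each point is a feature tested by edgeR, with its log2 fold change of air2-Δ rrp6-Δ over WT on the vertical axis and its RNA class on the horizontal axis; red and blue mark features higher and lower at an adjusted p under 0.05, and bars mark class medians. CUTs sit highest with a median of 2.88, SUTs follow at 0.86, protein-coding genes centre at −0.07 and tRNAs lie lowest at −1.57 with no call.

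Of 925 CUTs, 759 passed the filter on low counts, 442 of them were higher in air2-Δ rrp6-Δ (58.2%, against 8.75% of all features) and 0 were lower. The median log2 fold change was 2.88, with quartiles of 1.96 and 3.89, while the median over all tested features was 0.03. The median CUT had 1.0 and 1.37 CPM in air2-Δ rrp6-Δ, against 0.0805 and 0.181 CPM in WT. Both air2-Δ rrp6-Δ libraries exceeded both WT libraries for 712 of the 759 CUTs (93.8%), and for 30.7% of all features. A CUT that passed the filter through the strains lacking RRP6 had to be low in WT. Without the filter, 449 of 923 CUTs were higher and the median was 2.71.

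The rise spanned a wide range of sizes. The log2 fold change exceeded 1 for 710 of the tested CUTs, 2 for 565 and 4 for 178. Of 5638 tested protein-coding genes 152, 44 and 11 exceeded these values. Many CUTs were near the floor in WT: 50 of those tested had 0 counts in both WT libraries. The median of 0.0805 CPM in WT replicate 1 is the level of 1 count there. The size of a large fold change is therefore imprecise for such CUTs. CUT350 had 240 and 246 counts in air2-Δ rrp6-Δ, against 0 and 2 counts in WT, a ratio of scaled counts of 284 with an exact 95% counting interval of 78.2 to 2352. CUT222 had 29.1 and 28.6 CPM in air2-Δ rrp6-Δ, against 0.161 and 0.230 CPM in WT (7.04, SE 0.30, adjusted p = 5.3e-06). The libraries of each strain lay close together. CUT841 had 19.8 and 24.9 CPM in air2-Δ rrp6-Δ, against 0.483 and 0.181 CPM in WT. CUT117 had 17.2 and 9.17 CPM in air2-Δ rrp6-Δ, against 0.242 and 0.0493 CPM in WT. Each of these 4 CUTs was at or below 0.483 CPM in both WT libraries. The strains did not overlap, which the rule for naming these CUTs required. CUT221 and CUT306 kept a measurable level in WT. CUT221 had 50.8 and 58.0 CPM in air2-Δ rrp6-Δ, against 1.21 and 0.971 CPM in WT (5.69, SE 0.29). CUT306 reached 192 and 130 CPM in air2-Δ rrp6-Δ, against 2.98 and 4.59 CPM in WT (5.37, SE 0.35). These 6 calls held under every alternative run. The count of higher CUTs did not hold its size: it was 212 without air2-Δ rrp6-Δ replicate 2, 256 without WT replicate 2 and 57 with the ribosomal DNA covariate, while the median log2 fold change stayed between 2.61 and 4.23.

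SUTs, longer noncoding RNAs that are detected in wild-type cells, changed less. Of 847 SUTs, 687 were tested, 109 were higher (15.9%, against 8.75% of all features) and 1 was lower, with a median log2 fold change of 0.86. The median SUT had 1.40 and 1.70 CPM in air2-Δ rrp6-Δ, against 0.725 and 0.855 CPM in WT. SUT720 had 20.3 and 22.4 CPM in air2-Δ rrp6-Δ, against 2.66 and 1.40 CPM in WT (3.50, SE 0.34, adjusted p = 0.0007). SUT164 had 23.5 and 20.7 CPM in air2-Δ rrp6-Δ, against 4.91 and 6.09 CPM in WT (1.99, SE 0.23, adjusted p = 0.0014). The strains were separate for both transcripts, and the naming rule required this of the SUTs with the largest changes. SUT279, SUT583, SUT105, SUT188 and SUT003 rose by 2.63 to 3.57 on the log2 scale. SUT694, the SUT that fell, was named after its values were seen and had 0.554 and 0.606 CPM in air2-Δ rrp6-Δ, against 3.06 and 3.50 CPM in WT (−2.50, SE 0.45), a call that ended without either air2-Δ rrp6-Δ library and with the covariate. Without air2-Δ rrp6-Δ replicate 2 the higher SUTs numbered 35, without air2-Δ rrp6-Δ replicate 1 they numbered 61, without a WT library 69 and 73, and with the covariate 12.

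Reading frames of the table that RefSeq does not list followed a similar course. Of 679 such frames, 175 were tested, 33 were higher (18.9%, against 8.75% of all features), 1 was lower and the median was 0.90. A frame that passed the filter only through the strains lacking RRP6 had to be low in WT. Of those tested, 8 had 0 counts in both WT libraries. Many frames of this class are dubious and overlap a gene. How counting treated strand is not given in the sources used here. Reads of a frame and of the gene it overlaps may therefore not be separable. YPL222C-A, for which the table names no gene that it overlaps, had 11.6 and 7.47 CPM in air2-Δ rrp6-Δ, against 0.725 and 0.378 CPM in WT (4.30, SE 0.41, adjusted p = 0.00068), and the call held under every alternative. YGL152C had 48 and 40 counts in air2-Δ rrp6-Δ and 0 in both WT libraries, at least 34.3-fold above the floor. The authors' deposited table describes it as overlapping PEX14, which encodes a docking protein for import into peroxisomes. PEX14 moved the opposite way, with 1.66 and 2.34 CPM in air2-Δ rrp6-Δ, against 15.1 and 12.2 CPM in WT (−2.77, SE 0.45, adjusted p = 0.0052). YGL182C, which that table describes as overlapping MND1, rose by 4.66, and MND1 itself, a gene of meiotic recombination, had 4.17 and 3.92 CPM in air2-Δ rrp6-Δ, against 0.886 and 0.444 CPM in WT (2.75). YDR426C, described as overlapping SNX41, rose by 3.68. YMR173W-A, described as overlapping DDR48, had 2.98 and 8.16 CPM in air2-Δ rrp6-Δ, against 20.3 and 24.7 CPM in WT (−2.03), a call that ended in a fit of the 2 strains alone and with the ribosomal DNA covariate. The PEX14 call ended with the covariate (adjusted p = 0.075), and that of MND1 with the covariate and without WT replicate 2.

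Protein-coding genes changed in both directions and mostly by little. Of 5638 tested, 70 were higher (1.24%, against 8.75% of all features) and 109 were lower (1.93%, against 1.54%), with a median of −0.07. Without air2-Δ rrp6-Δ replicate 1 these counts were 30 and 33, without air2-Δ rrp6-Δ replicate 2 they were 27 and 31, and with the covariate 6 and 12. Scaling by totals outside the ribosomal DNA moved the median of all features to 0.14 and turned the balance to 91 higher and 75 lower.

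Among the genes that rose, NRD1 encodes the RNA-binding protein that terminates CUT and snoRNA transcription and that is known to limit its own mRNA by the same route. It had 104 and 72.0 CPM in air2-Δ rrp6-Δ, against 11.7 and 19.9 CPM in WT (2.47, SE 0.35, adjusted p = 0.0032), and the call held under every alternative. In rrp6-Δ it had 97.7 and 68.5 CPM. YJL047C-A, which encodes a small protein of unknown function, had 10.7 and 12.2 CPM in air2-Δ rrp6-Δ, against 0.242 and 0.313 CPM in WT (5.26, SE 0.32), and YDR042C, also of unknown function, rose by 4.11. Both were nearly silent in WT libraries and clear in both air2-Δ rrp6-Δ libraries. GSC2, a catalytic subunit of beta-glucan synthase in the cell wall, had 97.5 and 89.6 CPM in air2-Δ rrp6-Δ, against 36.5 and 24.1 CPM in WT (1.63, SE 0.25, adjusted p = 0.0036). NCA3 (2.34) and YCL049C (1.81) also rose, and for GSC2, NCA3 and YCL049C only the covariate ended the call among the alternatives run. FLO1, a flocculin that joins cells to each other, rose by 2.37, CSS1 by 1.83, the oxysterol-binding protein gene HES1 by 1.78, the cell wall mannoprotein gene TIR4 by 1.67 and the fluoride exporter gene FEX2 by 1.57. These 5 calls were less firm. Leaving out WT replicate 1 ended those of FLO1, CSS1 and FEX2, leaving out WT replicate 2 ended those of HES1 and TIR4, and leaving out air2-Δ rrp6-Δ replicate 1 ended those of FLO1, CSS1, TIR4 and FEX2. Leaving out air2-Δ rrp6-Δ replicate 2 ended those of HES1 and FEX2, and the covariate ended all but that of FLO1.

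The largest fall among protein-coding genes was in GYP5, which encodes a GTPase-activating protein of vesicle transport. It had 0.158 and 0.363 CPM in air2-Δ rrp6-Δ, against 18.0 and 12.8 CPM in WT (−5.93, SE 0.52, adjusted p = 0.00048), with 6 and 9 counts in air2-Δ rrp6-Δ. In rrp6-Δ it had 0.606 and 0.424 CPM and in air1-Δ rrp6-Δ 0.289 and 0.673 CPM. GYP5 was thus below 1 CPM in every library lacking RRP6. HFM1, a meiotic DNA helicase gene, had 0.317 and 0.606 CPM in air2-Δ rrp6-Δ, against 8.94 and 8.85 CPM in WT (−4.30). LIN1 had 0.370 and 0.121 CPM in air2-Δ rrp6-Δ, against 5.15 and 4.93 CPM in WT (−4.26). The calls of GYP5, HFM1, LIN1 and YNL040W (−2.46) held under every alternative. GRX4, a glutaredoxin gene of iron regulation, fell by 2.68 and TFB6, a gene of the transcription factor TFIIH, by 2.38, and the covariate alone ended those calls. EFM3, a methyltransferase gene, fell by 2.58, a call that ended without either air2-Δ rrp6-Δ library and with the covariate.

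Several changed genes lay beside another changed feature in the RefSeq order of genes, and these pairs were noticed after the values were seen. DLD1, a D-lactate dehydrogenase gene next to the deleted AIR2, had 5.47 and 5.65 CPM in air2-Δ rrp6-Δ, against 28.7 and 20.4 CPM in WT (−2.14, SE 0.25, adjusted p = 0.0015). In rrp6-Δ, where AIR2 is intact, DLD1 had 10.8 and 14.3 CPM. The call against WT held under every alternative. LIN1 stands between snR71, which fell by 1.14, and REC104, a meiotic recombination gene that rose by 2.67. GSC2 stands next to NAG1 (3.59), and PHO12 next to YHR214C-E (3.57), which rose while PHO12 fell. TIR4 stands next to TIR2, which rose by 1.58, and GRE1, which rose, next to FMP40, which fell by 1.46. How the TIR2 and FMP40 calls held under the alternatives was not examined. Most neighbours of the named genes had no call. Without air2-Δ rrp6-Δ replicate 1 the calls of snR71 and REC104 ended, without replicate 2 those of snR71 and YHR214C-E, without WT replicate 2 those of snR71 and YHR214C-E, and without air1-Δ rrp6-Δ replicate 2 that of YHR214C-E. The covariate ended the calls of NAG1, REC104, snR71 and YHR214C-E, and a fit of the 2 strains alone that of YHR214C-E. The neighbours of RRP6 had no call, with log2 fold changes of 0.80 for PHO80 and −0.19 for ALG6.

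Genes of TRAMP and the exosome other than the deleted ones had no call. Of 5 TRAMP genes AIR2 alone was lower, and of 13 genes of the exosome and its cofactors RRP6 alone was lower, with 0 higher in either list. PAP2, the Trf4 poly(A) polymerase gene, had 52.4 and 41.8 CPM in air2-Δ rrp6-Δ, against 44.4 and 34.6 CPM in WT (0.26, adjusted p = 0.68). TRF5 differed by 0.05, MTR4 by 0.09 and DIS3, the other catalytic subunit of the exosome, by 0.16. The strains overlapped for PAP2, TRF5 and MTR4. The largest differences in the exosome list were 0.63 for RRP42 (adjusted p = 0.089) and 0.62 for RRP4 (adjusted p = 0.21), genes of a ring and a cap subunit. Of 14 genes of noncoding termination NRD1 alone was called higher, and 3 had an unadjusted p under 0.05. That 1 call is 7.14%, against 8.75% of all features and 1.24% of protein-coding genes. NAB3, the partner of Nrd1, had 104 and 78.5 CPM in air2-Δ rrp6-Δ, against 71.3 and 50.1 CPM in WT (0.59, adjusted p = 0.20), with no overlap and no call. The helicase gene SEN1 differed by 0.32.

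Genes known to be controlled by early termination or, for SER3, by noncoding transcription across the promoter went both ways. Of 10 tested, NRD1, SER3 and GSC2 were higher (30%, against 8.75% of all features) and ADE12 was lower (10%, against 1.54%). SER3, the first enzyme of serine synthesis, had 48.5 and 49.8 CPM in air2-Δ rrp6-Δ, against 20.6 and 21.1 CPM in WT (1.23, SE 0.23, adjusted p = 0.0087). SRG1, the noncoding RNA transcribed across the SER3 promoter and known to repress it in rich medium, had 34.1 and 25.8 CPM in air2-Δ rrp6-Δ, against 15.6 and 17.1 CPM in WT (0.87, SE 0.20, adjusted p = 0.023). Both RNAs of this pair were thus more abundant, and neither strain overlapped the other. IMD2, the GTP synthesis gene best known for early termination, had 42.0 and 39.7 CPM in air2-Δ rrp6-Δ, against 33.1 and 31.3 CPM in WT (0.34, adjusted p = 0.36). URA8 differed by 0.38, HRP1 by 0.31, RPL9B by 0.02, IMD3 by −0.01 and URA2 by −0.08, all without a call. SER33, the paralog of SER3, had 33.5 and 31.8 CPM in air2-Δ rrp6-Δ, against 54.3 and 51.6 CPM in WT (−0.70), a call that ended without any one of the 4 libraries compared, without air1-Δ rrp6-Δ replicate 2, in the exact test, with totals outside the ribosomal DNA and with the covariate. The SER3 call ended without either WT library, without air2-Δ rrp6-Δ replicate 2 and with the covariate. Those of SRG1 and ADE12 (−0.85) ended without WT replicate 2, without air2-Δ rrp6-Δ replicate 1 and with the covariate, and in addition without WT replicate 1 or air1-Δ rrp6-Δ replicate 1 for SRG1 and without air2-Δ rrp6-Δ replicate 2 for ADE12.

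Genes of leucine and branched-chain amino acid synthesis were lower in part. Of 12 tested, 4 were lower (33.3%, against 1.54% of all features) and 0 higher, with a median of −0.42. LEU1, the isopropylmalate isomerase gene, had 83.5 and 71.3 CPM in air2-Δ rrp6-Δ, against 459 and 394 CPM in WT (−2.46, SE 0.23, adjusted p = 0.00056). OAC1, a mitochondrial carrier gene, had 17.0 and 13.0 CPM in air2-Δ rrp6-Δ, against 68.3 and 60.8 CPM in WT (−2.10). BAT1, the mitochondrial branched-chain aminotransferase gene, had 54.1 and 62.4 CPM in air2-Δ rrp6-Δ, against 247 and 218 CPM in WT (−2.00). No library of air2-Δ rrp6-Δ came near a WT library for these 3 genes, and the calls held under every alternative. ILV3 fell by 0.91, a call that ended without any one of the 4 libraries compared, without air1-Δ rrp6-Δ replicate 2 and with the covariate. LEU2, absent from WT, was present in air2-Δ rrp6-Δ and in rrp6-Δ, where LEU1 had 78.9 and 67.9 CPM. The part of the LEU2 marker in these differences was not tested.

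Leu3 is the transcription factor known to control several of these genes, and its site is usually given as CCGG, a pair of any bases and CCGG again. In RefSeq promoters of the R64 build, taken from 250 bases before to 50 after each gene's start, these letters occurred on either strand in 8 of 6001 windows (0.133%) and in 2 of the 12 genes of the list, LEU1 and BAT1. The windows of these 2 genes are shown because they hold the letters and both genes fell; capitals mark the match. The LEU1 window lies at chrVII:478603-478902 on the minus strand with its match 217 bases before the start, and the BAT1 window at chrVIII:517282-517581 on the plus strand with its match 147 bases before the start.
LEU1: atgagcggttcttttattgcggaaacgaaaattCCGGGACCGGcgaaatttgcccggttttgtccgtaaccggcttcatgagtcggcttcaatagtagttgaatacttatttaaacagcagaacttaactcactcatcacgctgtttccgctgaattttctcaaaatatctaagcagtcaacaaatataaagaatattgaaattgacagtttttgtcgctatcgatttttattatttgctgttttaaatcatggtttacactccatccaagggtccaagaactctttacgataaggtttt
BAT1: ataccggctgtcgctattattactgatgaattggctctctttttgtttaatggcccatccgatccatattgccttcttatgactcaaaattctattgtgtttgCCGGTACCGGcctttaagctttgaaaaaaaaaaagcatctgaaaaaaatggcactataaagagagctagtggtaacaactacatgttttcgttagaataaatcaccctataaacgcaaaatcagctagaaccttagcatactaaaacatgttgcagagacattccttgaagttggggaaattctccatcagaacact
The other 6 windows with the letters belong to LEU2, GAT1, NPA3, DRE2, FSF1 and BRO1. LEU2 is the marker, and the other 5 genes had no call, with log2 fold changes of −0.54 to 0.45. The letters are a description of the windows and not a measure of binding.

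Phosphate genes were lower in 4 of 22 cases (18.2%, against 1.54% of all features) and higher in 0, with a median of −0.29. PHO5, the secreted acid phosphatase gene, had 5.41 and 6.06 CPM in air2-Δ rrp6-Δ, against 62.8 and 46.9 CPM in WT (−3.26, SE 0.51, adjusted p = 0.0058). PHO12, a further acid phosphatase gene, had 39.0 and 36.4 CPM in air2-Δ rrp6-Δ, against 136 and 144 CPM in WT (−1.89, SE 0.19, adjusted p = 0.00073). PHO12 is nearly identical to PHO11, so reads of that pair may be shared. PHM6 fell by 1.67 and VTC2, a gene of polyphosphate synthesis, by 0.85. The covariate ended the PHO5 call, while the PHO12 call held under every alternative. The PHM6 and VTC2 calls also ended with the covariate and without either air2-Δ rrp6-Δ library, and that of VTC2 also without WT replicate 2 and in a fit of the 2 strains alone. Windows of 6 of the 22 genes held CACGTG, the core letters of sites of the phosphate factor Pho4, against 2.92% of all windows. None of those 6 genes had a call. The windows reach only 250 bases before the start, and sites farther out or with other letters were not searched.

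**Figure D2:**
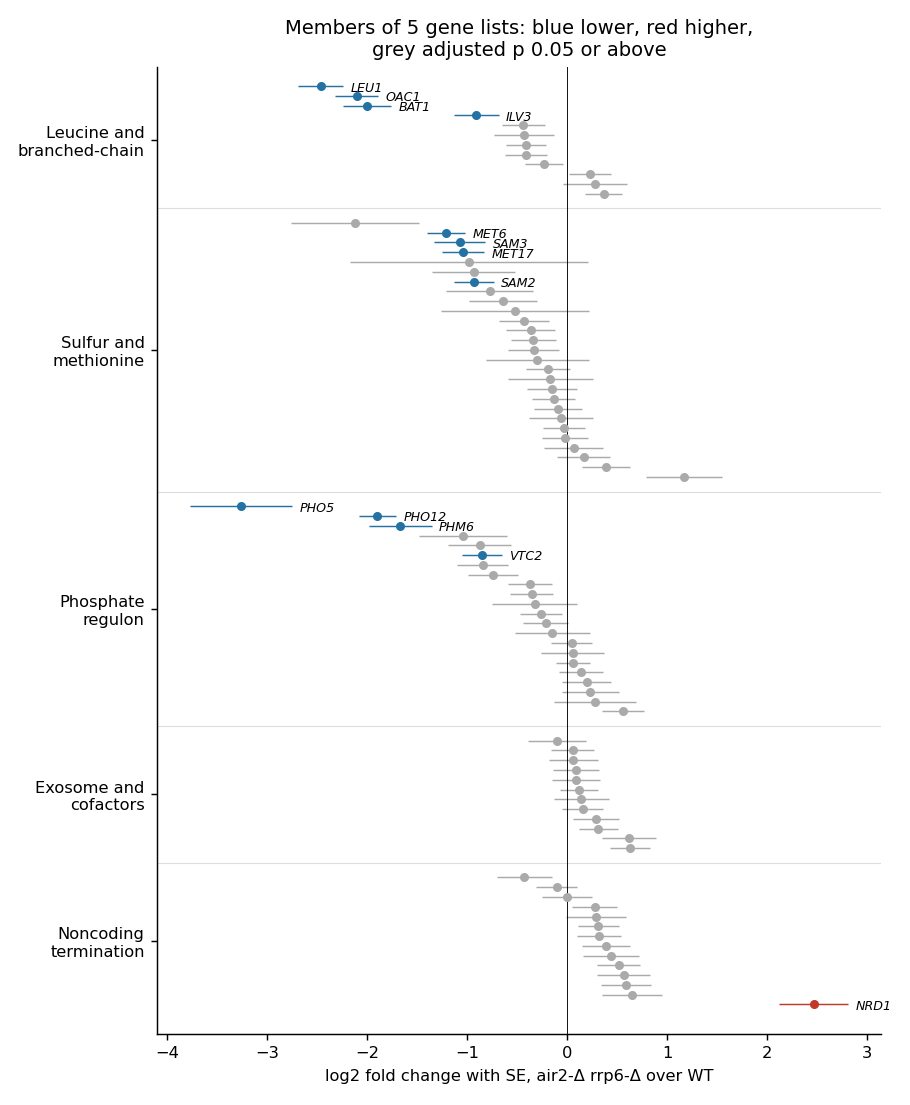
Log2 fold change of air2-Δ rrp6-Δ over WT with its SE for every tested member of 5 gene lists, RRP6 itself left out; blue members were lower and NRD1 in red was higher at an adjusted p under 0.05. LEU1, OAC1, BAT1 and PHO5 lie at −2.00 or below, NRD1 lies at 2.47, and the exosome genes lie between −0.10 and 0.63.

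Other biosynthetic lists held a few lower genes each. Of 27 genes of sulfur and methionine metabolism, 4 were lower (14.8%, against 1.54% of all features) and 0 higher, with a median of −0.33. MET6, the methionine synthase gene, had 75.5 and 80.0 CPM in air2-Δ rrp6-Δ, against 171 and 188 CPM in WT (−1.21, SE 0.19, adjusted p = 0.0044). MET17 fell by 1.04, the S-adenosylmethionine synthetase gene SAM2 by 0.93 and its transporter gene SAM3 by 1.07. URA4 (−1.12) and URA1 (−0.85) of pyrimidine synthesis and ADE17 (−1.08) of purine synthesis were also lower, as 2 of 9 (22.2%) and, with ADE12, 2 of 18 (11.1%) tested genes of their lists. Of 6 histidine synthesis genes HIS7 was lower (−0.70, 16.7%), and it was named after its values were seen. In the iron regulon 2 of 27 genes were higher, the mRNA decay factor gene CTH1 (0.90) and the heme oxygenase gene HMX1 (1.41). That is 7.41%, against 8.75% of all features and 1.24% of protein-coding genes. Histone genes (10), heat shock chaperones (23), pheromone response genes (25) and genes of RNA polymerase III and tRNA processing (32) had 0 calls in edgeR's quasi-likelihood test, with 1, 5, 2 and 2 members at an unadjusted p under 0.05. The calls of MET6 and URA4 ended under no alternative but the covariate. Leaving out air2-Δ rrp6-Δ replicate 1 ended the calls of the other genes named here, and leaving out replicate 2 ended these as well. Leaving out WT replicate 1 ended those of SAM2, SAM3, URA1, ADE17, CTH1 and HMX1, and leaving out WT replicate 2 those of MET17, URA1, ADE12, ADE17, CTH1 and HMX1. Leaving out an air1-Δ rrp6-Δ library ended those of URA1 and HMX1 (either library) and CTH1 (replicate 1). The covariate ended every call of this paragraph. The URA1 and HIS7 calls also ended in a fit of the 2 strains alone, with TMM from protein-coding genes and with totals outside the ribosomal DNA, and that of HIS7 also in the exact test and without WT replicate 1, WT replicate 2 or air1-Δ rrp6-Δ replicate 2.

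Stress and meiosis genes were called in both directions. GRE1, a gene of osmotic stress, had 2.01 and 1.74 CPM in air2-Δ rrp6-Δ, against 0.322 and 0.214 CPM in WT (2.90). The glycogen genes GPH1 (−1.77) and GSY2 (−1.25), a phosphorylase and a synthase, were lower. Of 25 general stress genes tested, 1 was higher (4%, against 8.75% of all features) and 2 were lower (8%, against 1.54%). The median of this list was −0.36, with 15 negative and 10 positive values, and 8 members had an unadjusted p under 0.05. Of 39 meiotic genes tested, MND1, REC104 and DIT2 (2.83) were higher and HFM1, SPO1 (−2.77) and ZIP2 (−2.53) were lower. That is 7.69% in each direction, against 8.75% of all features called higher, most of them CUTs, and 1.54% called lower. Among protein-coding genes 1.24% were called higher and 1.93% lower. DIT2 and ZIP2 were named after their values were seen. Among ribosomal protein genes, RPL18B rose by 1.01 and RPL8A fell by 1.20. Of 82 tested genes of the large subunit 1 was higher and 1 lower, 1.22% each way. This is below both shares of all features and stands beside 1.24% higher and 1.93% lower among protein-coding genes. COS8 (1.17) and COS10 (1.38) rose and COS7 (−1.0) fell among 12 tested COS genes, a family of near-identical subtelomeric genes whose reads may be shared. These COS calls are 16.7% higher and 8.33% lower, against 8.75 and 1.54% of all features. Leaving out air2-Δ rrp6-Δ replicate 1 ended the calls of GRE1, GPH1, GSY2, REC104, SPO1, DIT2, ZIP2, COS10 and COS7, and leaving out air2-Δ rrp6-Δ replicate 2 those of GSY2, SPO1, DIT2, ZIP2, RPL18B, RPL8A, COS8, COS10 and COS7. Leaving out WT replicate 1 ended those of GPH1, GSY2, DIT2, RPL18B, COS8, COS10 and COS7, and leaving out WT replicate 2 those of GRE1, MND1, SPO1, DIT2, RPL18B, COS10 and COS7. Leaving out air1-Δ rrp6-Δ replicate 2 ended those of GSY2, DIT2, ZIP2 and COS7, leaving out air1-Δ rrp6-Δ replicate 1 that of DIT2, and leaving out either rrp6-Δ library those of GSY2 and DIT2. A fit of the 2 strains alone ended the calls of GPH1, GSY2, DIT2 and ZIP2, DESeq2 that of DIT2, and TMM from protein-coding genes and totals outside the ribosomal DNA each that of COS7. The covariate ended every call of this paragraph but that of HFM1.

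SnoRNAs, which guide chemical modification and cleavage of ribosomal RNA, are mostly trimmed from longer precursors by Rrp6 and the exosome. Of 68 tested, 1 was higher and 5 were lower in air2-Δ rrp6-Δ than in WT, with a median of −0.43. These are 1.47 and 7.35%, against 8.75 and 1.54% of all features. The median snoRNA had 27.0 and 48.7 CPM in air2-Δ rrp6-Δ, against 25.6 and 63.5 CPM in WT, so the strains overlapped. snR4 had 404 and 271 CPM in air2-Δ rrp6-Δ, against 59.6 and 132 CPM in WT (1.81, adjusted p = 0.029). snR9 had 20.0 and 18.0 CPM in air2-Δ rrp6-Δ, against 110 and 58.8 CPM in WT (−2.14, SE 0.28, adjusted p = 0.0025). snR56 had 19.2 and 37.2 CPM in air2-Δ rrp6-Δ, against 96.8 and 146 CPM in WT (−2.11), and snR190 had 278 and 268 CPM in air2-Δ rrp6-Δ, against 646 and 767 CPM in WT (−1.37). snR52 (−1.65) and snR71 (−1.14) were the others that fell. The snR9 call held under every alternative and that of snR56 under all but the covariate, whereas the snR4 call ended under 8 of them, among them the replicate block and the absence of WT replicate 1 or of either air2-Δ rrp6-Δ or air1-Δ rrp6-Δ library. The calls of snR190, snR52 and snR71 ended without air2-Δ rrp6-Δ replicate 1 and with the covariate, those of snR190 and snR71 also without replicate 2, and those of snR52 and snR71 also without WT replicate 2. The median over snoRNAs turned with the WT library used: it was −0.98 with 12 lower without WT replicate 1 and 0.41 with 3 higher and 3 lower without WT replicate 2, and 0.51 with the covariate.

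Against rrp6-Δ, which differs by AIR2 and bleR alone, snoRNA levels lay mostly below those of the single mutant. SnoRNAs held 1.64 and 1.84% of counts outside the ribosomal DNA in air2-Δ rrp6-Δ, against 3.06 and 3.16% in rrp6-Δ. In air1-Δ rrp6-Δ they held 2.70 and 2.08%, so a share below that of rrp6-Δ was not particular to air2-Δ rrp6-Δ. The log2 fold change was negative for 66 of 68 snoRNAs, with a median of −1.02, beside a median of 0.02 over all features. In edgeR's quasi-likelihood test 0 of 68 were called, at a background of 0% higher and 0.0133% lower over all features, and 34 had an unadjusted p under 0.05, each of them lower. DESeq2 called 14 snoRNAs lower and 0 higher, where it called 0.212% of all features lower and 0.0133% higher. The edgeR exact test called 22 lower and 0 higher, where it called 0.345% of all features lower and 0.053% higher. snR62 had 2.80 and 7.92 CPM in air2-Δ rrp6-Δ, against 45.7 and 41.4 CPM in rrp6-Δ (−3.04, SE 0.68), and 4.43 and 14.9 CPM in WT. snR53 had 6.28 and 12.5 CPM in air2-Δ rrp6-Δ, against 82.5 and 29.5 CPM in rrp6-Δ (−2.58, SE 0.50), and 5.55 and 6.86 CPM in WT. snR58 had 31.4 and 44.3 CPM in air2-Δ rrp6-Δ, against 170 and 120 CPM in rrp6-Δ (−1.94, SE 0.39), and 18.5 and 45.5 CPM in WT. For these 3 snoRNAs, chosen after their values were seen, air2-Δ rrp6-Δ lay near or among the WT libraries and apart from rrp6-Δ. With the covariate the median against rrp6-Δ was −0.83, and it ran from −1.28 to −0.92 when 1 library was left out.

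**Figure D3:**
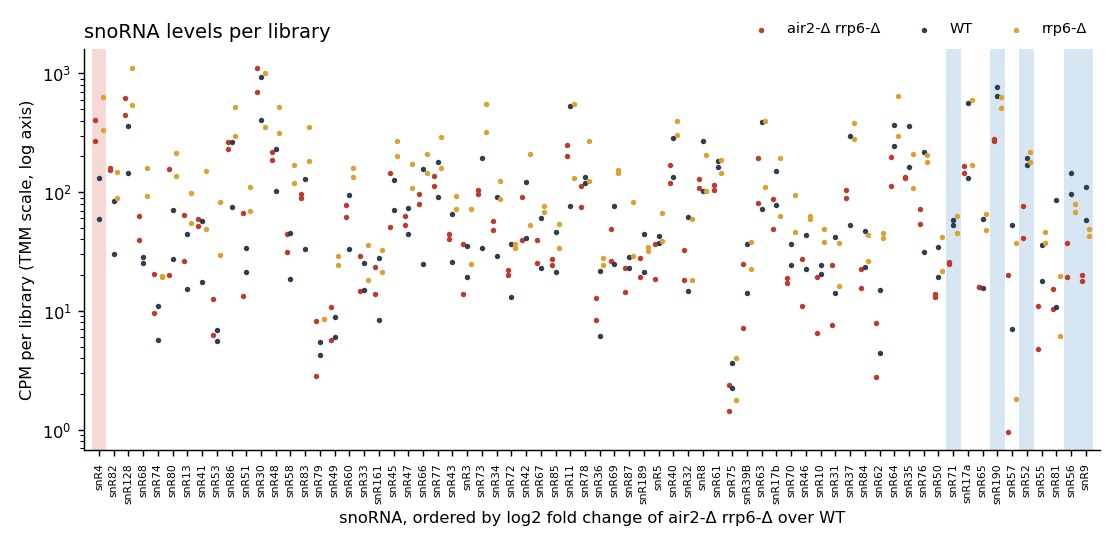
Levels of the 68 tested snoRNAs as CPM per library on a log axis, ordered by the log2 fold change of air2-Δ rrp6-Δ over WT, with air2-Δ rrp6-Δ in red, WT in dark blue and rrp6-Δ in yellow; shading marks the snoRNA called higher (red) and the 5 called lower (blue) against WT. The yellow rrp6-Δ points lie above the red ones for most snoRNAs, with a median CPM of 86.3 and 90.4 in rrp6-Δ, while red and dark blue points interleave.

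Other structured RNAs had mostly negative values against rrp6-Δ as well, with 0 calls in the quasi-likelihood test. The log2 fold change was negative for 10 of 10 spliceosomal and other structured RNAs (median −0.85, 3 at an unadjusted p under 0.05), which include the 6 snRNAs (median −0.91). It was negative for 68 of 81 tRNAs (median −0.65, 2 at an unadjusted p under 0.05) and for 23 of 25 ribosomal DNA features (median −0.52, 2 at an unadjusted p under 0.05). The tRNA median turned with the library left out. It was 0.17 without rrp6-Δ replicate 2 and −0.90 without its replicate 1. Without air2-Δ rrp6-Δ replicate 2 it was −0.29, without replicate 1 of that strain −1.21, and with the covariate −0.02. Among all features AIR2 was the 1 feature called by the quasi-likelihood test (−3.97, SE 0.28, adjusted p = 0.00082), a call that ended when either air2-Δ rrp6-Δ library was left out, and 201 features had an unadjusted p under 0.05. The median log2 fold change was −0.02 over 759 CUTs and 0.00 over 687 SUTs, with 0 calls in either class and 13 and 10 members at an unadjusted p under 0.05. The median CUT had 1.0 and 1.37 CPM in air2-Δ rrp6-Δ and 1.01 and 1.40 CPM in rrp6-Δ. CUT222 had 29.1 and 28.6 CPM in air2-Δ rrp6-Δ and 29.1 and 33.6 CPM in rrp6-Δ, a log2 difference of −0.12 with an SE of 0.20. For NRD1 the difference was 0.09 with an SE of 0.33, and for LEU1 it was 0.08 with an SE of 0.22. GSC2 differed by 0.75 (SE 0.24), with 97.5 and 89.6 CPM in air2-Δ rrp6-Δ, against 62.8 and 48.4 CPM in rrp6-Δ, without a call. DESeq2 and the exact test also called DLD1 lower, with an adjusted p of 0.045 and 0.048 and log2 fold changes of −1.18 and −1.19, and the Ty2 element YNLCTy2-1 higher (1.32 and 1.31, adjusted p = 0.0053 and 0.049). The exact test alone also called the 5.8S ribosomal RNA features RDN58-1 and RDN58-2 lower (−1.91, adjusted p = 0.00041), and HSP12 (1.46), DIA1 (1.35) and FIT2 (1.73) higher.

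Polyadenylated tRNA was scarce and uneven. Of 299 tRNA features 81 were tested and 0 were called in edgeR's quasi-likelihood test, although 24 had an unadjusted p under 0.05 and the median was −1.57. DESeq2 called 3 of the 81 tRNAs lower, where it called 2.61% of all features lower. The exact test of edgeR called 12 of the 81 lower, where it called 2.69% of all features lower. The median tRNA had 0.634 and 0.323 CPM in air2-Δ rrp6-Δ, against 0.725 and 1.86 CPM in WT. WT replicate 2 stood apart, with 0.354% of counts outside the ribosomal DNA in tRNA features, against 0.0609% in WT replicate 1. Without WT replicate 1 the median was −2.56, and without WT replicate 2 it was −0.39. WT replicate 2 was also the library with the highest share of ribosomal DNA, and the part of that share in the tRNA difference was not tested.

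Of 49 tested Ty retrotransposon features, 2 were higher in air2-Δ rrp6-Δ (4.08%, below the 8.75% of all features). YPRCTy1-4 had 588 and 442 CPM in air2-Δ rrp6-Δ, against 172 and 149 CPM in WT (1.68, SE 0.39, adjusted p = 0.023), and YNLCTy2-1 had 615 and 394 CPM in air2-Δ rrp6-Δ, against 214 and 240 CPM in WT (1.15, SE 0.28, adjusted p = 0.029). In rrp6-Δ these elements had 299 and 136 CPM and 179 and 223 CPM. Copies of a Ty family are nearly identical, so a read may belong to several of them. Both calls ended without either WT library, without air2-Δ rrp6-Δ replicate 1 and with the covariate, and in addition without air2-Δ rrp6-Δ replicate 2 for YPRCTy1-4 and without air1-Δ rrp6-Δ replicate 1 for YNLCTy2-1.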

How the data were processed

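Polyadenylated RNA was sequenced on SOLiD from 4 yeast strains with 2 libraries each. The authors deposited expected counts per feature and library, not scaled for depth, and 11.1 to 13.0% of values per library were not whole numbers. The submitters' processing notes name Bowtie 0.12.7, edgeR 2.2.5 and SAMtools. For strand use, annotation and build, the sources used here give no statement. Of 9014 feature identifiers, 6179 matched RefSeq genes, whose names, order and promoters come from the R64 build.

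Expected counts were rounded to whole numbers, filtered by filterByExpr of edgeR 4.0.16 with a minimum count of 10, scaled by TMM, and fitted over all 8 libraries in R 4.3.3 with a mean for each strain, by robust quasi-likelihood. P-values were adjusted by Benjamini-Hochberg over 7543 features, with a threshold of 0.05. DESeq2 1.42.0, edgeR's exact test, other scalings, no filter, a replicate block, the ribosomal DNA share as covariate, the 2 strains alone and leaving out each library were the alternatives. The chi-square between the libraries of a strain, divided by its degrees of freedom, was 66.1 in air2-Δ rrp6-Δ and 346 in WT, so none repeats another. Counting intervals and floors cover counting error only, and PCR copies are not told apart.

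Genes were named by a rule: the 12 largest changes each way among protein-coding genes, 6 among CUTs, 5 among SUTs and 5 among other features, past the threshold, at 5 CPM or more in the higher strain and with no overlap of libraries. All genes of the deletion, TRAMP, exosome and termination lists and up to 4 members of any list with at least 2 calls were added. The members and lists were chosen with earlier results of these data known. List members with no match in the table, 7 in all, were left out.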

Additional observations from a re-analysis of the deposited data

Results flagged for a closer look

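AIR2 was the feature whose change against WT differed between air2-Δ rrp6-Δ and rrp6-Δ in the test of the difference itself, at −3.97 on the log2 scale (SE 0.28, adjusted p = 0.00082 in edgeR's quasi-likelihood test). It had 0.898 and 0.848 CPM in air2-Δ rrp6-Δ, against 15.8 and 11.6 CPM in rrp6-Δ. It is the gene deleted in air2-Δ rrp6-Δ and present in rrp6-Δ.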

How the results depend on the processing

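Against WT, features higher and lower numbered 660 and 116, and these counts depended on the setting. Lower features numbered 197 with DESeq2 and 203 with edgeR's exact test. With the ribosomal DNA share as covariate, higher and lower features numbered 80 and 13. Leaving out 1 library gave 291 to 653 higher and 35 to 143 lower features, the least without air2-Δ rrp6-Δ replicate 2. Against rrp6-Δ, 0 higher and 1 lower feature became 1 and 16 with DESeq2 and 4 and 26 with the exact test, and leaving out 1 library gave 0 higher and 0 to 1 lower. With a replicate block, features lower than in WT numbered 221 and features higher 856. Same-numbered libraries of air2-Δ rrp6-Δ and WT deviated from their strain means with a correlation of 0.19 across features, those of air2-Δ rrp6-Δ and rrp6-Δ with 0.37, and the 6 pairs of strains with 0.13 to 0.37. Whether same-numbered libraries were handled together was not tested. With 2 libraries a strain and no label of a shared batch, the block stayed an alternative. Of 91 named features called against WT, 0 reversed under any alternative, 31 kept their call under each alternative and 45 under each but the covariate. The covariate ended 59 of these calls, leaving out air2-Δ rrp6-Δ replicate 1 ended 38 and replicate 2 ended 35, and leaving out WT replicate 1 ended 26 and replicate 2 ended 29. The causes of these changes were not tested. WT replicate 1 had the fewest counts outside the ribosomal DNA, 4565468, so that 1 count there stands for 0.0805 CPM, which limits the precision of low features.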

Other observations

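Seripauperin (PAU) genes, a large subtelomeric family of cell wall mannoprotein genes induced by low oxygen, had the same sign throughout. Of 24 PAU genes 15 were tested, 15 had a positive log2 fold change of air2-Δ rrp6-Δ over WT, from 1.03 to 2.76 with a median of 1.35, and PAU12 (2.76) passed the threshold, while 7 had an unadjusted p under 0.05. Their sequences are nearly identical, so a read may be shared among members and the members are not independent. A PAU gene that passed the filter on low counts only through the strains lacking RRP6 had to be low in WT. The 1 call is 6.67% of those tested, against 8.75% of all features and 1.24% of protein-coding genes. Against rrp6-Δ the median over the same genes was 0.30, with 0 called and 0 at an unadjusted p under 0.05.

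NAB2, which encodes a nuclear poly(A) RNA-binding protein, had 93.1 and 87.1 CPM in air2-Δ rrp6-Δ, against 42.7 and 38.1 CPM in WT (1.16, SE 0.19, adjusted p = 0.0050 in edgeR's quasi-likelihood test). Named only after its values were known, it was the 1 of 14 genes of mRNA export and poly(A) binding with a call. That is 7.14%, against 8.75% of all features and 1.24% of protein-coding genes called higher. Of the 14, 3 had an unadjusted p under 0.05. PAU12, NOC4 and LSC2 were likewise named after their values were known. Ribosome assembly genes centred at 0.12 with NOC4 (0.88) higher out of 77 (1.3%, against 8.75% of all features and 1.24% of protein-coding genes). Genes of respiration and the citrate cycle centred at −0.26 with LSC2 (−0.87) lower out of 46 (2.17%, near the 1.54% of all features). Without either air2-Δ rrp6-Δ library the calls of PAU12, NOC4 and LSC2 ended, as they did without WT replicate 2, and without WT replicate 1 those of NOC4 and LSC2, while that of NAB2 ended only with the covariate. Without air1-Δ rrp6-Δ replicate 2 those of NOC4 and LSC2 ended, and without its replicate 1 that of NOC4, and with totals outside the ribosomal DNA that of LSC2. Mitochondrial features held 3.86 and 6.1% of counts outside the ribosomal DNA in air2-Δ rrp6-Δ, against 4.72 and 4.98% in WT.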
